A study of Mus musculus with 4 samples.

Results

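The genes described here encode the tubulins, the subunits of the neurofilaments and related intermediate filaments, the stathmins, the microtubule-associated proteins and 3 proteins of the growth cone and of actin binding. They were chosen by gene symbol and not by their expression, and 37 of the 27189 genes in the expression files matched. These were 7 alpha-tubulins, 8 beta-tubulins, 1 gamma-tubulin, 6 intermediate filament subunits, 4 stathmins, 8 microtubule-associated proteins and 3 growth cone and actin-binding proteins. Each of the 37 symbols had a single entry in the files.

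RNA came from motor neurons of the ventral horn, whose large cell bodies were cut by laser from spinal cord sections of mice at 3 months of age on a C57BL/6J x SJL/J background. Of the 4 polyA RNA-seq libraries, each from a separate mouse, 2 came from the wild-type SOD1-YFP strain (592) and 2 from the G85R SOD1-YFP strain (737). Both strains carry a human SOD1 transgene fused to yellow fluorescent protein, and the G85R strain, which carries many more copies of its transgene, models inherited amyotrophic lateral sclerosis, a paralytic disease of motor neurons. Genotype, transgene copy number and transgenic strain therefore cannot be told apart, no mice without a transgene were sequenced, and neurons with large fluorescent aggregates were left out of the capture. The human transgene has no entry in the files analysed here, so that the labels could not be checked against it.

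Microtubules are hollow polymers of alpha- and beta-tubulin dimers, and gamma-tubulin starts their assembly. Each tubulin exists as several isotypes encoded by separate genes. Neurofilaments are the intermediate filaments of neurons and are especially abundant in large axons such as those of motor neurons, whose calibre they help to set. Stathmins bind tubulin dimers and favour disassembly, whereas the microtubule-associated proteins bind along the polymer and, in general, stabilise it.

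These genes included some of the most abundant transcripts in the captured RNA. Their values are given as RPKM, reads scaled by transcript length and by the mapped reads of the library, which allows levels of different genes to be compared per length. Their summed RPKM was 16398 and 17315 in wild-type replicates 1 and 2, against 16127 and 17478 in G85R replicates 1 and 2. This was 4.24% and 4.45% of all RPKM in wild-type, against 4.11% and 4.44% in G85R. The genotypes overlapped, and the mean total in G85R was 0.997 times that in wild-type. Of the 10 genes with the highest mean RPKM in these motor neurons, 4 were cytoskeletal genes (Nefl, Nefm, Tubb3 and Stmn3, at ranks 1, 2, 8 and 10), and 11 were among the 100 highest.

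The depth was similar in the 4 libraries, since an RPKM equal to 1 read had a median over genes of 0.0195 to 0.0226. Among markers of motor neurons, Chat, Slc18a3 and Slc5a7 stood at 49.6 RPKM or more in every library. Markers of neighbouring cells were also present, and for astrocytes the summed RPKM of 7 markers was 446 and 452 in wild-type against 621 and 532 in G85R. S100b made up most of that sum, and the other 6 markers summed to 33.8 and 37.1 RPKM in wild-type against 124 and 49.0 in G85R. Of 5 red blood cell entries, 2 (both Hbb-b1) were tested and called higher in G85R by limma, 1 was at 0 in all libraries, and their summed RPKM was 2.31 and 2.72 in wild-type against 13.5 and 12.7 in G85R. In bulk RNA of captured cells, a change in the number of cells of a type cannot be told apart from a change in RNA per cell.

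**Figure D1:**
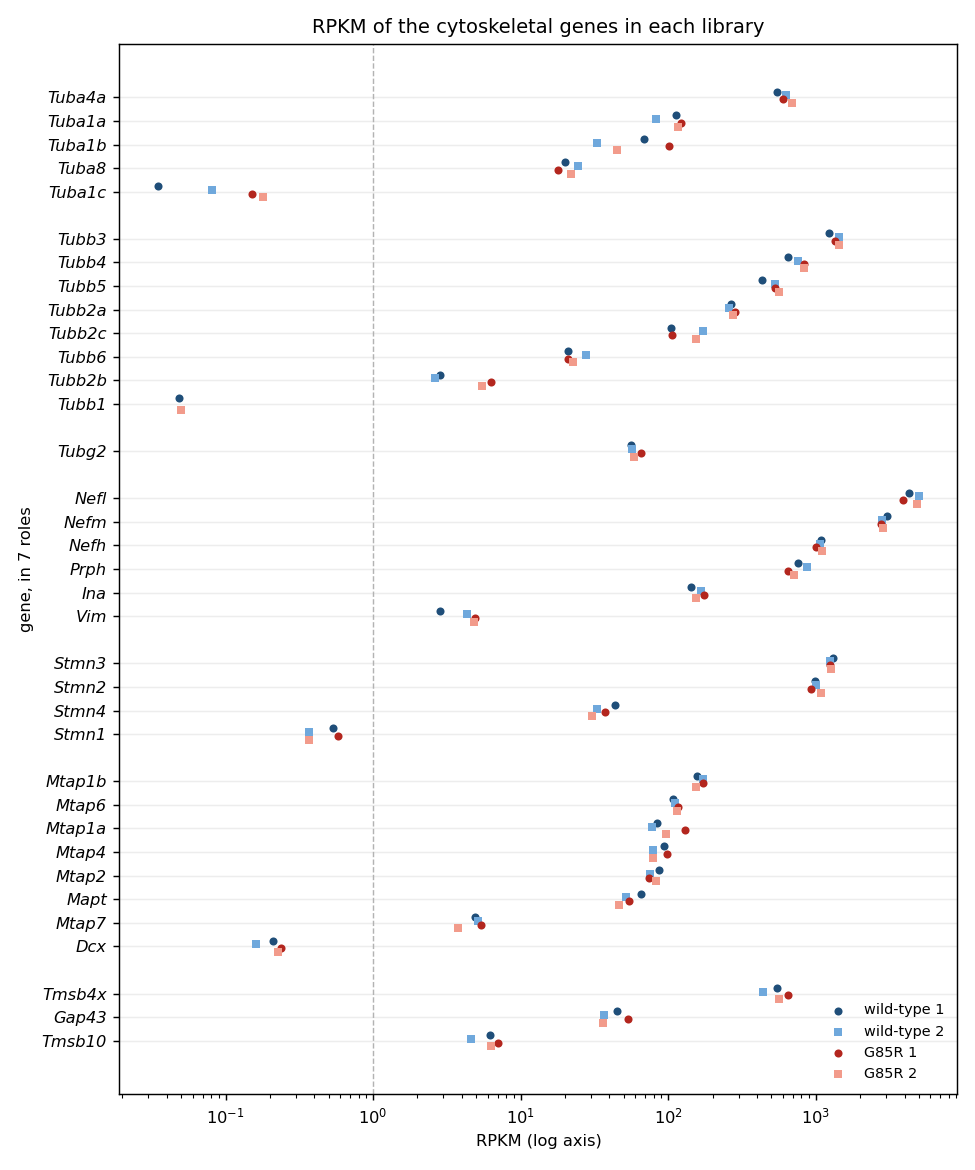
RPKM (log axis) of each cytoskeletal gene in each library, with genes grouped by role and the dashed line at 1 RPKM. Nefl and Nefm lie at the right in all 4 libraries, Tubb2b shows both G85R points to the right of both wild-type points, and values of 0 (Tuba3a, Tuba3b and 2 of the 4 libraries for Tubb1) are not drawn.

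Genotypes were compared with limma, a linear model with variances moderated across genes, on log2(RPKM + 0.1), and genes whose RPKM averaged under 1 across the libraries were not tested. A log2 fold change is the G85R mean minus the wild-type mean on that scale, so that it understates the change of genes with low RPKM. A call required an adjusted p under 0.05, with Benjamini-Hochberg adjustment over all 11530 genes tested. The limma p-values and intervals rest on the spread between these animals, moderated toward that of other genes of similar level. They do not rest on the spread of each gene alone. An exact permutation test of 2 libraries against 2, used below for sums, shares and ratios, cannot give a p under 0.333. Of the 37 cytoskeletal genes, 31 were tested. The other 6 fell below the minimum and are described with their roles.

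Of the 31 tested genes, 1 was called higher in G85R, the beta-tubulin Tubb2b, and 0 were called lower. Over all genes tested, 0.642% were called, with 0.269% higher and 0.373% lower in G85R. At an unadjusted p under 0.05, 4 of the 31 passed (Tubb2b, Mtap1a, Prph and Tmsb4x), against 11.0% of all genes tested. The 2 values of a genotype lay beyond both values of the other in 11 of the 31 genes, 10 of them higher in G85R and 1 lower, while over all genes tested 41.2% were separated in this way, 17.3% higher and 23.9% lower. The share of separated cytoskeletal genes (35.5%) was thus near that over all genes tested, with most of them on the higher side.

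The log2 fold change was above 0 in 18 of the 31 genes and below 0 in 13, with a median of 0.07 against -0.02 for all genes tested, and 25 of the 31 were under 0.3 in size. The median size of the log2 fold change was 0.143, against 0.124 for all genes tested. The median gap between replicates of these genes was 0.226 in wild-type and 0.162 in G85R, whereas over all genes tested it was 0.156 and 0.145.

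**Figure D2:**
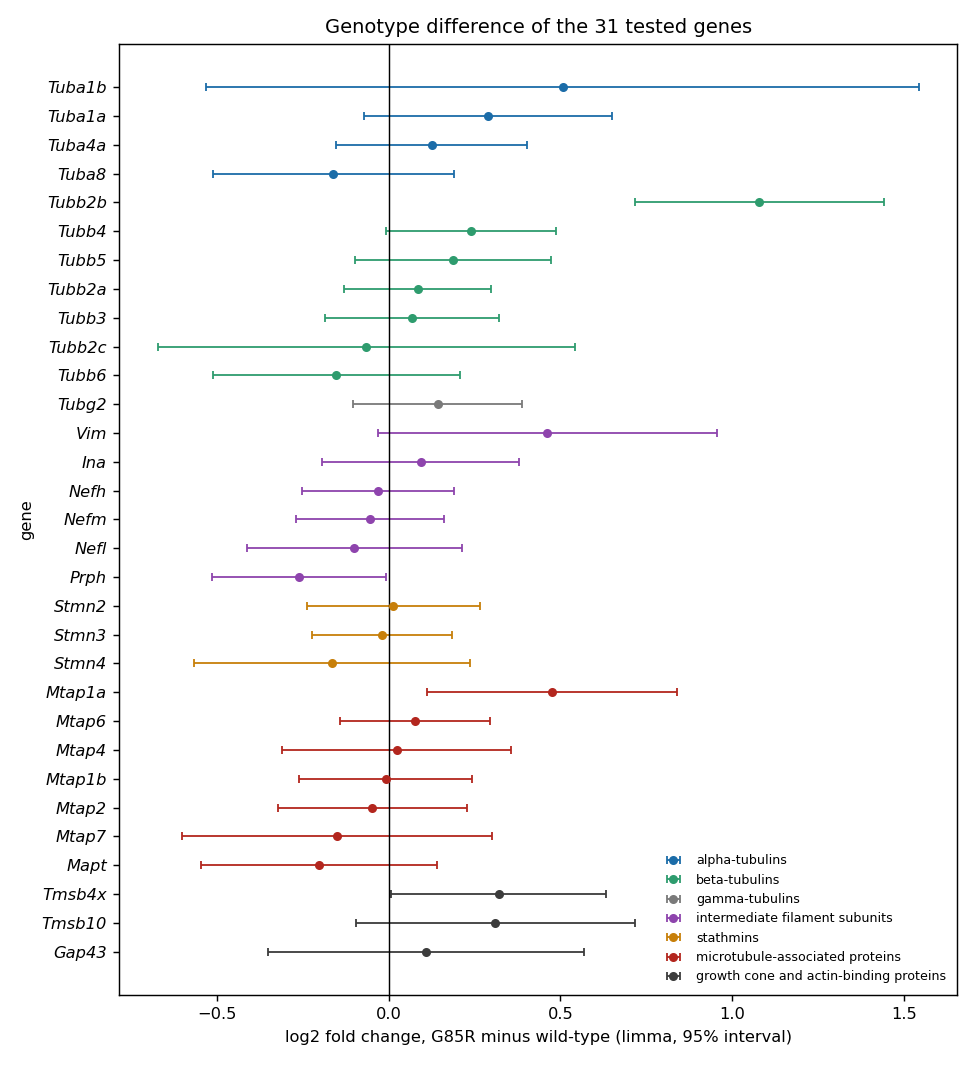
Log2 fold change (G85R minus wild-type) of the 31 tested genes with its 95% interval from limma, coloured by role and sorted within each role. The interval lies above 0 for Tubb2b, Mtap1a and Tmsb4x and below 0 for Prph, and spans 0 for the other 27 genes.

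Because alpha- and beta-tubulin isotypes are close copies of one another, the sequences of 2 groups are shown first, as they set which 75-base reads can be placed on a single gene. Coding sequences and positions were read from the NCBIM37 (mm9) genome and its GENCODE annotation. The genes for Tuba1a (chr15:98780272-98783982, minus strand), Tuba1b (chr15:98761856-98764996, minus strand) and Tuba1c (chr15:98860322-98868536, plus strand) lie near each other on chromosome 15. Over 1356 coding bases, Tuba1a and Tuba1b differed at 23 positions (98.3% identity), and the longest identical run was 281 bases. The 30 bases at coding positions 670 to 699, in exon 4 of 4, hold 10 of these differences. No such stretch within an exon holds more, and this is the first of those with 10. The bases are printed 5′ to 3′ on the coding strand with capitals at the positions where Tuba1a and Tuba1b differ.
Tuba1a (chr15:98781122-98781151): tacacTaacctAaacAgGTtGatAGgTcaA
Tuba1b (chr15:98762670-98762699): tacacCaacctTaacCgCCtTatTAgCcaG
Tuba1c (chr15:98867760-98867789): tacacCaacctTaacCgCCtTatTAgCcaG
In this stretch Tuba1c carries the same bases as Tuba1b, so that these 30 bases set Tuba1a apart from Tuba1b but not Tuba1b from Tuba1c.

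The beta-tubulins Tubb2a (chr13:34166170-34169877) and Tubb2b (chr13:34218877-34222223) are neighbours on the minus strand of chromosome 13. Their 1338 coding bases differed at 47 positions (96.49% identity), with a longest identical run of 551 bases. The bases at coding positions 61 to 90, in exon 2 of 4, hold 5 differences, marked by capitals.
Tubb2a (chr13:34168494-34168523): tgggaggtGatAagCgatgagcatggCatC
Tubb2b (chr13:34221191-34221220): tgggaggtCatCagTgatgagcatggTatA

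For each gene, all 75-base windows of its annotated transcript were compared with the genome and with the other transcripts. A second identical copy elsewhere was found for 79.7% of windows of Tuba1b, 61.9% of Tuba1a, 57.5% of Tuba1c, 44.0% of Tubb2a, 43.7% of Tubb2b and 40.7% of Tubb2c. For Tuba1b the copies with up to 2 mismatches fell at 15 other places in the genome, 6 of them annotated as pseudogenes. Outside the tubulins, the stathmin Stmn1 (80.1%) and the actin-binding Tmsb10 (38.0%) also had many identical windows. In 20 of the 37 genes, among them Nefl, Nefm, Nefh, Prph, Stmn2, Stmn3, Mtap1a and Tmsb4x, no window had a second copy even with up to 2 mismatches. How reads with several matches were divided is not given in the sources used here, so that the values of Tuba1a, Tuba1b, Tuba1c, Tubb2a, Tubb2b, Tubb2c, Tuba3a, Tuba3b, Stmn1 and Tmsb10 are uncertain.

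**Figure D3:**
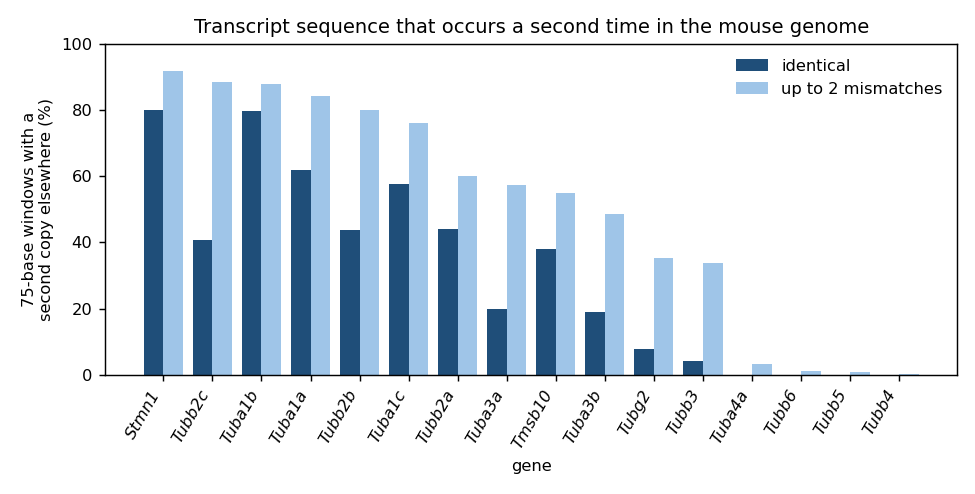
Percentage of the 75-base windows of each transcript that occur a second time elsewhere, identical or with up to 2 mismatches, for the 16 genes where at least 0.1% of windows do so. Stmn1 and Tuba1b have the most identical windows (80.1% and 79.7%), and of the abundant beta-tubulins Tubb4 and Tubb5 have none.

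Among the alpha-tubulins, Tuba4a had the highest RPKM, with Tuba1a and Tuba1b after it. A second identical copy was found for 61.9% of Tuba1a windows and 79.7% of Tuba1b windows, but for 0.0% of Tuba4a windows. The order of these isotypes, their shares and the alpha-tubulin sums are therefore uncertain too. Tuba4a measured 551 and 634 RPKM in wild-type against 597 and 695 in G85R. The genotypes overlapped, and the log2 fold change was 0.13 (SE 0.12, limma adjusted p = 0.787). Its share of the summed alpha-tubulin RPKM was 73.1% and 81.8% in wild-type versus 71.2% and 79.2% in G85R (exact permutation p = 0.667). Of the windows of the Tuba4a transcript, 28.2% lie in exons that overlap those of Stk16, and without strand in these libraries such reads cannot be assigned to 1 of them.

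Tuba1a, the isotype best known from developing neurons, measured 114 and 83.4 RPKM in wild-type against 122 and 116 in G85R. Its G85R values were above both wild-type values, but wild-type replicate 1 came close to them, and the log2 fold change of 0.29 (SE 0.15) was not called (limma adjusted p = 0.556). It was 0.07 without wild-type replicate 2 and 0.51 without wild-type replicate 1. Tuba1b, a broadly expressed isotype, measured 68.9 and 32.8 RPKM in wild-type against 102 and 44.9 in G85R. It had the second largest log2 fold change of the 31 genes (0.51, SE 0.44, limma adjusted p = 0.762), and also the widest gaps between replicates, 1.07 in wild-type and 1.18 in G85R on the log2 scale, with replicate 1 higher in both genotypes. Leaving out wild-type replicate 2 turned the value to -0.03 and leaving out G85R replicate 1 turned it to -0.08. Either step leaves the replicate numbers unequal between genotypes, and Tuba1b was higher in G85R than in wild-type at each number. What libraries of the same number share is not given.

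Tuba8 measured 20.1 and 24.5 RPKM in wild-type against 18.0 and 21.8 in G85R, and overlapped. Tuba1c was near the limit of detection, at 0.0346 and 0.0814 RPKM in wild-type against 0.152 and 0.178 in G85R, which corresponds to an estimated 2, 5, 8 and 10 reads. Tuba3a and Tuba3b, known from testis, were listed at 0 in all 4 libraries. The alpha-tubulins together summed to 753 and 774 RPKM in wild-type versus 839 and 878 in G85R, so that both G85R sums were above both wild-type sums, with a ratio of means of 1.12 and an exact permutation p of 0.333, the smallest possible.

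The beta-tubulins held the only gene called by limma. Tubb2b, an isotype prominent in developing neurons and in glia, measured 2.85 and 2.61 RPKM in wild-type against 6.33 and 5.45 in G85R, from an estimated 160, 156, 325 and 297 reads. Both G85R libraries were far above both wild-type libraries relative to the gaps between replicates. The log2 fold change was 1.08 (SE 0.15, 95% interval 0.72 to 1.44, limma adjusted p = 0.0462), a 2.11-fold higher level on that scale. Tubb2b was nevertheless a minor isotype, with 0.105% and 0.0820% of the summed beta-tubulin RPKM in wild-type against 0.203% and 0.166% in G85R.

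The call of Tubb2b lay near the threshold. It was lost in limma without a minimum RPKM (adjusted p = 0.361), with quantile normalization (adjusted p = 0.0529) and with eBayes without a trend (adjusted p = 0.0556). It was also lost without wild-type replicate 2 (log2 fold change 1.02) and without G85R replicate 1 (log2 fold change 0.97). With each library left out, the log2 fold change stayed between 0.97 and 1.19. The log-linear test did not call Tubb2b either, but it takes RPKM as counts and has little power for genes of low RPKM. With up to 2 mismatches, 80.0% of Tubb2b windows had a second copy, mainly in Tubb2a. The ratio of Tubb2a to Tubb2b RPKM was 94.4 and 99.4 in wild-type versus 45.1 and 50.4 in G85R (exact permutation p = 0.333). Of the astrocyte markers above, S100b, Gfap and Slc1a2 were higher in both G85R libraries and the other 4 overlapped between genotypes, with 0 of 7 called by limma (2 at an unadjusted p under 0.05, 1 by the log-linear test) and none at 0 in any library. Gfap stood at 11.5 and 17.1 RPKM in wild-type against 91.9 and 28.4 in G85R. The 8 microglial markers summed to 15.1 and 16.8 RPKM in wild-type against 34.7 and 17.7 in G85R, with 0 called by limma (2 at an unadjusted p under 0.05, 0 by the log-linear test) and none at 0. The part of these cells in the difference of Tubb2b was not tested.

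Tubb3, the neuronal beta-tubulin isotype, was the most abundant tubulin, at 1224 and 1431 RPKM in wild-type versus 1344 and 1435 in G85R. The values overlapped (log2 fold change 0.07, SE 0.11, limma adjusted p = 0.895). Of the Tubb3 windows, 4.24% had an identical second copy and 33.7% had one with up to 2 mismatches, so that its level is less certain than those of Tubb4 and Tubb5. Tubb4, now named Tubb4a and known from neurons and oligodendrocytes, measured 650 and 759 RPKM in wild-type against 828 and 831 in G85R. The G85R libraries were higher, with a log2 fold change of 0.24 (SE 0.10) that was not called by limma (adjusted p = 0.467). Tubb5, a broadly expressed isotype, measured 432 and 533 RPKM in wild-type against 533 and 560 in G85R, and overlapped at the border (log2 fold change 0.19, SE 0.12, limma adjusted p = 0.657).

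None of the remaining beta-tubulins was called. Tubb2a measured 269 and 260 RPKM in wild-type versus 286 and 275 in G85R, with both G85R libraries higher. Tubb2c, now Tubb4b, measured 105 and 171 RPKM in wild-type against 106 and 156 in G85R, with replicate 2 higher in both genotypes. Tubb6 was between 21.0 and 27.9 RPKM in all libraries, while Tubb1, the isotype of platelets, reached at most 0.0502 RPKM, an estimated 2 reads.

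The makeup of the beta-tubulins was compared as shares within each library. Tubb3 made up 45.3% and 45.0% of the summed beta-tubulin RPKM in wild-type against 43.0% and 43.7% in G85R, a difference of -1.75 percentage points. Tubb4 made up 24.1% and 23.8% in wild-type versus 26.5% and 25.3% in G85R, a difference of 1.97 points. Neither pair of genotypes overlapped, each with an exact permutation p of 0.333. Values separated in this way cannot change direction when a library is left out. The shares of Tubb5 and Tubb2b (higher in G85R) and of Tubb6 (lower) were also separated, with the same p, while those of Tubb2a, Tubb2c and Tubb1 overlapped. Shares of the same sum are not independent of each other. The sums of all beta-tubulins were 2704 and 3185 RPKM in wild-type against 3124 and 3285 in G85R, and overlapped.

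Tubg2, the gamma-tubulin more expressed in brain, measured 55.6 and 56.5 RPKM in wild-type against 65.2 and 58.7 in G85R. Both G85R libraries were higher, and the log2 fold change of 0.14 (SE 0.10) was not called (limma adjusted p = 0.703). With up to 2 mismatches, 35.4% of its windows had a second copy, in Tubg1.

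**Figure D4:**
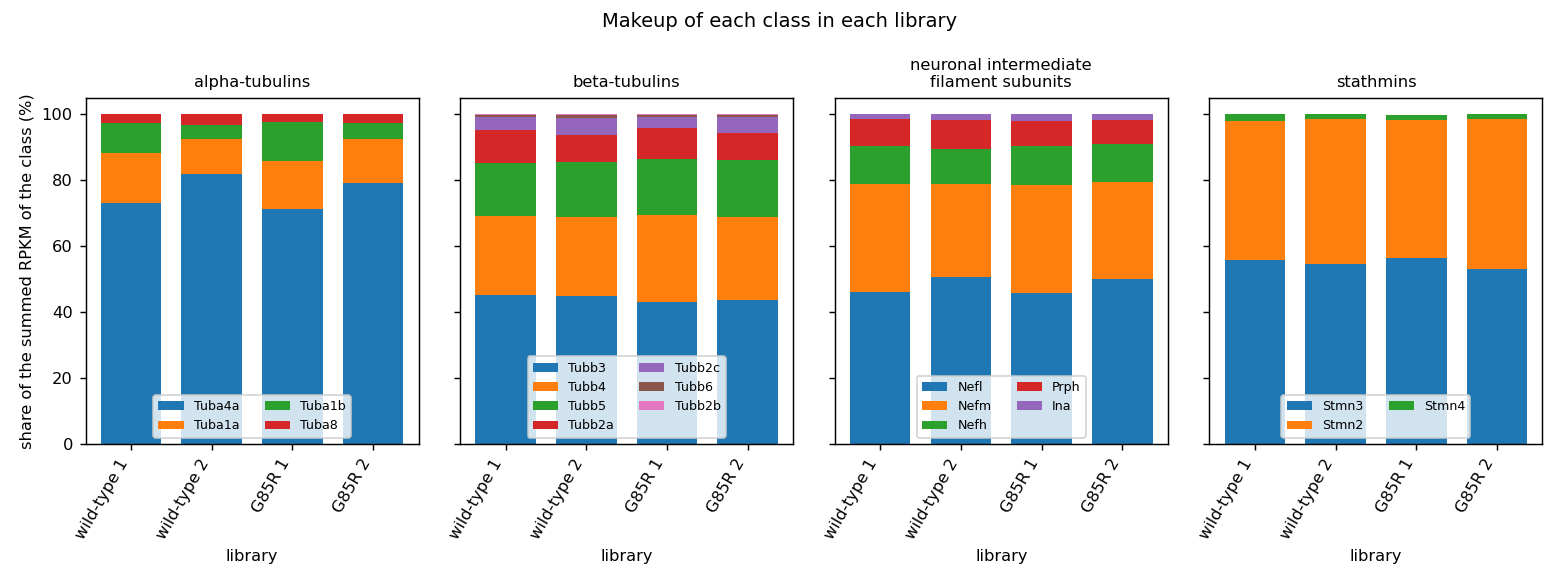
Stacked shares (%) of each isotype or subunit in the summed RPKM of its class, for the alpha-tubulins, beta-tubulins, neuronal intermediate filament subunits and stathmins, with a bar per library. Tuba4a, Tubb3, Nefl and Stmn3 lead their classes in all 4 libraries, and the Tubb4 segment is larger in both G85R bars (26.5% and 25.3%) than in both wild-type bars (24.1% and 23.8%). The alpha-tubulin shares rest on uncertain values of Tuba1a and Tuba1b.

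The light and medium neurofilament subunits led the cytoskeletal transcripts, and none of the 3 neurofilament subunits was called by limma. Nefl, the light subunit that the others need for assembly, measured 4294 and 5044 RPKM in wild-type versus 3905 and 4827 in G85R. Replicate 2 was higher in both genotypes, by 0.23 and 0.31 on the log2 scale, which exceeded the genotype difference of -0.10 (SE 0.13, limma adjusted p = 0.872). Nefm, the medium subunit, measured 3065 and 2804 RPKM in wild-type against 2780 and 2870 in G85R (log2 fold change -0.05, SE 0.09, limma adjusted p = 0.907). Nefh, the heavy subunit, whose long tail projects from the filament, measured 1085 and 1068 RPKM in wild-type against 1002 and 1106 in G85R (log2 fold change -0.03, SE 0.09, limma adjusted p = 0.951). All 3 overlapped between genotypes. In the GENCODE annotation, 31.3% of Nefl windows lie in exons of a Nefm transcript on the opposite strand. The Nefm transcript used here for the windows shares 0.0% of its own windows with another gene. Whether the gene models behind the RPKM hold the overlapping exons is not given. If they do, reads there cannot be assigned without strand.

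The ratios between the subunits varied more between mice than between genotypes. The ratio of Nefl to Nefm RPKM was 1.40 and 1.799 in wild-type versus 1.41 and 1.68 in G85R, so that replicates of the same number were closer to each other than replicates of a genotype. The ratio of Nefm to Nefh was 2.83 and 2.63 in wild-type against 2.77 and 2.59 in G85R (exact permutation p = 0.667).

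Prph (chr15:98885605-98889409, plus strand), the gene of peripherin, an intermediate filament subunit of neurons with axons outside the brain and spinal cord, was the only gene of the 31 that was lower in both G85R libraries than in both wild-type libraries. It measured 757 and 870 RPKM in wild-type against 647 and 709 in G85R. The log2 fold change was -0.26 (SE 0.11, 95% interval -0.51 to -0.01), which was not called (limma unadjusted p = 0.0449, adjusted p = 0.439), and it was -0.16 without wild-type replicate 2 and -0.36 without wild-type replicate 1. Its share of the neuronal intermediate filament RPKM was 8.10% and 8.74% in wild-type versus 7.60% and 7.33% in G85R, a difference of -0.95 points (exact permutation p = 0.333). Of the 7 motor neuron markers, 6 had a log2 fold change below 0, with 0 called by limma (1 at an unadjusted p under 0.05, 0 by the log-linear test) and none at 0, and their summed RPKM was 736 and 915 in wild-type against 637 and 849 in G85R. Their part in the value of Prph was not tested.

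Ina, the gene of alpha-internexin, measured 142 and 168 RPKM in wild-type against 176 and 155 in G85R, and overlapped. Vim, the gene of vimentin, which is known from astrocytes, endothelium and immature cells, measured 2.86 and 4.34 RPKM in wild-type versus 4.93 and 4.87 in G85R. The G85R values were higher, and wild-type replicate 1 was the lowest by some distance. The log2 fold change of 0.46 (SE 0.21) was not called (limma adjusted p = 0.482), and it was 0.17 without wild-type replicate 1 and 0.75 without wild-type replicate 2. The 7 endothelial markers summed to 8.89 and 10.1 RPKM in wild-type against 8.10 and 7.57 in G85R, none at 0 in any library, and the astrocyte sums are those given with Tubb2b. Their part in the level of Vim was not tested.

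Of the stathmins, none was called and none of the 3 tested was separated between genotypes. Stmn3 measured 1309 and 1251 RPKM in wild-type against 1254 and 1272 in G85R (log2 fold change -0.02, SE 0.09, limma adjusted p = 0.968). Stmn2, a stathmin of growing and regenerating axons, measured 990 and 1006 RPKM in wild-type versus 927 and 1094 in G85R (log2 fold change 0.01, SE 0.11, limma adjusted p = 0.982). The 95% intervals were -0.22 to 0.19 for Stmn3 and -0.24 to 0.27 for Stmn2, which is the size of difference that these 4 libraries leave possible.

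Stmn4 was much lower, at 43.8 and 32.8 RPKM in wild-type against 37.6 and 30.5 in G85R, with replicate 1 higher in both genotypes (log2 fold change -0.16, SE 0.17, limma adjusted p = 0.817). Stmn1, the stathmin of dividing and immature cells, measured 0.532 and 0.367 RPKM in wild-type against 0.582 and 0.365 in G85R, from an estimated 10 to 15 reads. Most of its transcript sequence occurs a second time in the genome, as given above, so that its level is uncertain. The stathmins together summed to 2344 and 2290 RPKM in wild-type versus 2219 and 2397 in G85R, with a ratio of means of 0.996.

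Among the microtubule-associated proteins, Mtap1a stood apart from the rest. Mtap1a (now Map1a, chr2:121115336-121136568, plus strand), which binds microtubules of mature axons and dendrites, measured 83.9 and 77.1 RPKM in wild-type against 130 and 96.1 in G85R. Each G85R library was above both wild-type libraries, with G85R replicate 1 well above G85R replicate 2. The log2 fold change was 0.48 (SE 0.15, 95% interval 0.11 to 0.84), which was not called (limma unadjusted p = 0.0175, adjusted p = 0.317), and without G85R replicate 1 it was 0.26. No 75-base window of Mtap1a had a second copy, and 1.69% of them overlap exons of Ppip5k1.

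Mtap1b, the related gene known from developing axons, was the most abundant of this group, at 157 and 172 RPKM in wild-type against 173 and 154 in G85R (log2 fold change -0.01, SE 0.11, limma adjusted p = 0.987). Mtap6, a protein of cold-stable microtubules, measured 109 and 111 RPKM in wild-type versus 117 and 115 in G85R, a separation of narrow groups (log2 fold change 0.08, SE 0.09, limma adjusted p = 0.853). The ratio of Mtap1b to Mtap1a RPKM was 1.87 and 2.24 in wild-type against 1.33 and 1.61 in G85R (exact permutation p = 0.333).

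The other microtubule-associated proteins overlapped between genotypes. Mapt, the gene of tau, measured 65.3 and 51.7 RPKM in wild-type against 54.6 and 46.7 in G85R. Mtap2, the gene of the dendritic protein MAP2, measured 86.4 and 75.01 RPKM in wild-type versus 73.8 and 82.2 in G85R, and Mtap4 measured 93.9 and 79.2 in wild-type against 97.5 and 78.8 in G85R. Mtap7 was between 3.77 and 5.39 RPKM. Dcx, the gene of doublecortin, a marker of migrating immature neurons, was under 0.24 RPKM in all libraries, from an estimated 15 to 19 reads.

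The growth cone and actin-binding genes all had a log2 fold change above 0, though that of Gap43 turned to -0.03 without wild-type replicate 2 and to -0.17 without G85R replicate 1. Tmsb4x (chrX:163645025-163647247, minus strand), the gene of thymosin beta 4, which sequesters actin monomers, measured 544 and 437 RPKM in wild-type against 652 and 568 in G85R. Both G85R libraries were higher, by a log2 fold change of 0.32 (SE 0.13, 95% interval 0.01 to 0.63) that was not called (limma unadjusted p = 0.0463, adjusted p = 0.442), and that was 0.16 without wild-type replicate 2 and 0.48 without wild-type replicate 1. Tmsb10, the related thymosin beta 10, measured 6.18 and 4.62 RPKM in wild-type versus 7.01 and 6.31 in G85R (log2 fold change 0.31, SE 0.17, limma adjusted p = 0.580), and its reads are shared with other places in the genome. Gap43, a protein of growth cones and regenerating axons, measured 44.9 and 36.9 RPKM in wild-type against 53.2 and 36.2 in G85R, and overlapped (log2 fold change 0.11, SE 0.19, limma adjusted p = 0.918). The oligodendrocyte markers, of which 0 of 7 were called by limma (0 at an unadjusted p under 0.05 and 0 by the log-linear test) and none was at 0, summed to 893 and 833 RPKM in wild-type against 1066 and 812 in G85R. G85R replicate 1 was thus highest in this sum and in both other glial sums. The tested genes highest in that library were Tuba1a, Tuba1b, Tubb2a, Tubb2b, Tubg2, Ina, Vim, Mtap1a, Mtap1b, Mtap4, Mtap6, Mtap7, Tmsb4x, Tmsb10 and Gap43. Some of them led narrowly, such as Mtap1b (172.8 RPKM against 172.5 in wild-type replicate 2) and Vim (4.93 against 4.87 in G85R replicate 2). The rest of the tested genes were highest in another library. The share of all genes tested that were highest in G85R replicate 1 was not computed, so that this list has no background to be read against. The part of glial RNA in these values was not tested.

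**Figure D5:**
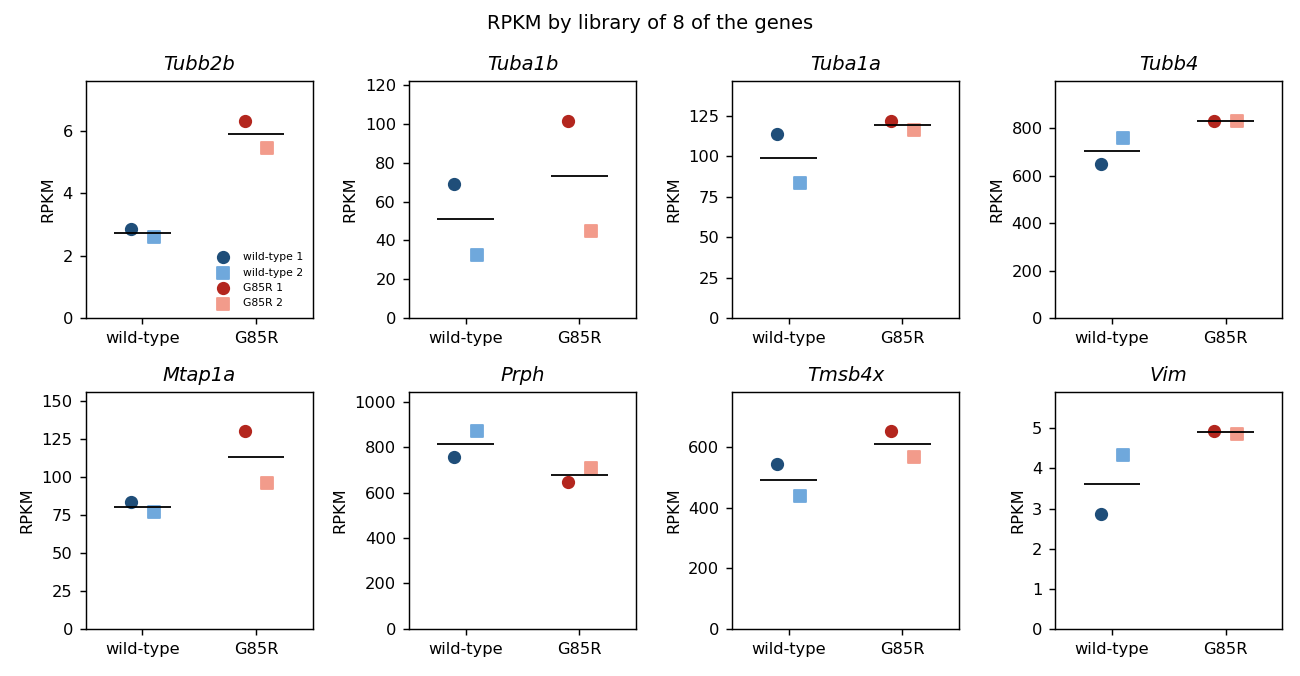
RPKM (linear axes from 0) of 8 genes by genotype, with a point per library and a line at the mean of each genotype. Tubb2b separates by more than its replicate gaps, the genotypes of Tuba1b overlap, and Prph is the only gene of the 8 whose G85R points both lie below the wild-type points.

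A log-linear likelihood ratio test, which treats the RPKM as Poisson counts and so takes no account of the spread between mice, was also run, because the study used a test of this kind. It called 4 of the 37 cytoskeletal genes at a Benjamini-Hochberg adjusted p under 0.05, Tubb4 (adjusted p = 0.00357) and Tmsb4x (adjusted p = 0.000299) higher and Nefl (adjusted p = 0.00362) and Prph (adjusted p = 0.000518) lower in G85R, against 0.228% of the 27189 genes in the files. All 4 averaged at least 500 RPKM, and of the 86 genes at or above that level in the files 18.6% (16) were called by this test, as were 4 of the 11 cytoskeletal genes among them. Below that level 0 cytoskeletal genes were called. Because RPKM stand in for counts, the test has little power for genes of low RPKM. None of the 4 was called by limma, and the G85R difference of Nefl turned to 0.02 without wild-type replicate 2 and to 0.05 without G85R replicate 1. These steps leave the replicate numbers unequal, and Nefl was lower in G85R at each number. The study placed Nefl, Nefm and Prph among its genes with reduced mRNA in G85R, from a list at an unadjusted p under 0.05. For Nefm the log-linear test here gave an unadjusted p of 0.0413, and Nefm was not called.

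The other genes of the microtubule and neurofilament pathway gave no call in limma. They gave none in the log-linear test either, which has little power for those of low RPKM. Lists of tubulin-folding factors, tubulin-modifying enzymes, end-binding and severing proteins, the gamma-tubulin ring complex, tau and neurofilament kinases, and cytoskeletal linkers held 97 genes in the files. Of the 83 tested, 5 passed an unadjusted p under 0.05 in limma, against 11.0% of all genes tested, and 0 an adjusted one. Their genotypes were separated in 13 genes with G85R higher and 22 with G85R lower. This was 42.2% of them, near the 41.2% of all genes tested (17.3% higher and 23.9% lower). Their median log2 fold change was -0.02, as for all genes tested.

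Of the 5, Mid1, a ubiquitin ligase bound to microtubules, measured 3.68 and 3.94 RPKM in wild-type versus 1.84 and 2.50 in G85R (log2 fold change -0.80, SE 0.19, limma adjusted p = 0.179). Ttl, the ligase that restores the final tyrosine of alpha-tubulin, measured 59.2 and 68.9 RPKM in wild-type against 44.5 and 54.0 in G85R (log2 fold change -0.38, SE 0.14, limma adjusted p = 0.372). Both were lower in each G85R library than in each wild-type library, as were Dclk1, a kinase related to doublecortin (log2 fold change -0.32), and Katnal1, a subunit of a severing enzyme (log2 fold change -0.41). Dmn, the gene of the intermediate filament protein synemin, was higher in both G85R libraries (log2 fold change 0.32). None of the 5 passed the threshold after adjustment.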

How the data were processed

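RNA-seq was analysed for 4 libraries of laser-captured motor neurons, 2 wild-type and 2 G85R, grouped by the sample titles. The authors mapped 75-base single-end reads with Bowtie (0.12.3 in the submitters' processing notes) to mm9 with added splice junctions, quantified UCSC gene clusters with Cufflinks, and deposited RPKM scaled by uniquely mapped reads, alone and with 1 read added. The difference of these is the RPKM of 1 read, by which RPKM was divided to estimate reads. The estimates are not exact counts, no intervals were computed from them, and no count test was the main test.

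The main test was that of limma 3.58.1 (lmFit, eBayes with trend, R 4.3.3) on log2(RPKM + 0.1), for genes averaging at least 1 RPKM, with Benjamini-Hochberg adjustment over all 11530. Sums, shares and ratios were compared by two-sided exact permutation tests. The log-linear test used the RPKM that include 1 added read, after rounding them to integers. Tests were tried on simulated data. Windows of 75 bases were searched with blastn 2.17.0 against NCBIM37 and GENCODE vM1 transcripts, taking 1 protein-coding transcript per gene. All 37 genes were placed by symbol. Python 3.11.15 was used for the rest.

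Full statistics were given for the 3 most abundant genes of each role, every called gene, separated genes with a log2 fold change of at least 0.3 in size, and Nefl, Nefm and Prph, which the study names (22 genes), and any other gene is given by its values. The genes and lists were chosen with earlier results of these data known. Splicing, editing and qRT-PCR were not analysed here.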

Additional observations from a re-analysis of the deposited data

How the results depend on the processing

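The count of cytoskeletal genes called higher in G85R, 1 with all 4 libraries, was 0 without a minimum RPKM, with a minimum mean RPKM of 5 (which leaves Tubb2b untested), with quantile normalization and with eBayes without trend, and 2 in the log-linear test, where the count of genes called lower was 2 instead of 0. With each library left out, these counts were 0 to 1 and 0 to 0. Over all genes the count of 74 became 112 without a minimum, 17 with a minimum of 5, 39 with quantile normalization and 49 without trend, and 80 to 189 with each library left out. The lone library of a genotype was then assumed to vary as the other genotype does. The median log2 fold change of 0.0694 was 0.0465 with a minimum of 5, 0.0924 after rescaling by the median ratio, 0.0273 with quantile normalization and 0.0352 to 0.0900 with each library left out. Restricted to the 25 tested genes with at most 50% of windows that have a second copy, a choice made after seeing the data, it was 0.0135, with 0 genes called higher. The cause of these shifts was not tested, other than the absence of Tubb2b from the last set.

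Of the 16 alternatives, 6 leave the fold changes as they are. Of 220 fold changes of the 22 named genes under the other 10, 201 kept their direction. The 19 others were those of 10 genes. Mtap1b was 0.0143 and Stmn3 0.0037 after rescaling by the median ratio, and Stmn2 was -0.0257 and Nefl and Nefm were 0.0000 with quantile normalization, which gives a gene of the same rank in every library the same value. With each library left out, the log2 fold change ranged from -0.1028 to 0.0395 for Nefh, -0.0895 to 0.0724 for Mtap1b, -0.3709 to 0.0438 for Stmn4, -0.2530 to 0.0526 for Nefl, -0.1180 to 0.0104 for Nefm, -0.0815 to 1.096 for Tuba1b, -0.1695 to 0.3861 for Gap43, -0.0522 to 0.0136 for Stmn3, -0.1057 to 0.1327 for Stmn2 and -0.0437 to 0.1825 for Tubb3. Without a change of direction it ranged from 0.0162 to 0.2347 for Tuba4a, 0.0352 to 0.3397 for Tubb5, 0.1292 to 0.3514 for Tubb4, 0.0672 to 0.2181 for Tubg2 and 0.1044 to 0.516 for Tmsb10. The differences in share ranged from -6.66 to 2.07 points for Tuba4a, -1.58 to 5.43 for Tuba1b, -1.21 to 3.12 for Tuba1a, -1.18 to 0.596 for Tubb2a, -1.31 to 0.166 for Tubb2c, -2.76 to 1.95 for Nefl, -1.63 to 3.01 for Nefm, -2.18 to 1.25 for Stmn3 and -1.30 to 2.56 for Stmn2.

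With the replicate number as a block, 4 cytoskeletal genes were called higher (Tubb2b, Tuba1b, Mtap1a and Tmsb4x), 2 of the pathway genes and 527 of all genes. What libraries of the same number share is not given, and with 2 pairs the numbers were not taken to pair the mice. Leaving out a library also leaves the numbers unequal between genotypes. The difference between replicates 1 and 2 correlated between genotypes with r = 0.22 across all genes tested and 0.733 across the 31 cytoskeletal genes, which are not independent replicates, and had the same sign in 21 of the 31.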
